A study of Sus scrofa with 6 samples.

Results

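The chemokine, interleukin and TNF superfamily genes of the aortic valve leaflet were taken from the annotation of the array by gene symbol. They were every gene with a symbol of the chemokines (CCL, CXCL, CX3C), the chemokine receptors (CCR, CXCR), the interleukins and their receptors (IL and a digit), the colony-stimulating factors (CSF), the TNF superfamily (TNFSF, TNFRSF) and the TNF-induced proteins (TNFAIP). TNF, LTA, LTB, OSM, IFNG, NFKB1, NFKBIA, RELA, PTGS2 and MIF were added by name, and IL1A, IL1B, IL1RN, IL6, IL17D and TNFRSF11B were left out. The annotation held 76 such genes, measured by 87 of the 23999 probe sets other than controls, among 6765 genes that have a probe set of their own. Each gene was represented by its probe set with the highest mean over the 6 arrays.

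Leaflets came from the hearts of castrated male and of female pigs of mixed breed, 5 months old, and their endothelium had been scraped off with a scalpel before total RNA was isolated. RNA from 3 male and 3 female pigs was hybridized to Affymetrix Porcine Genome arrays, and male expression was compared with female expression. All males were castrated, so they are no model of intact males. Each array held the sample of a different pig, and p-values measure the spread between these pigs.

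Chemokines are small secreted proteins that direct the migration of leukocytes through G protein-coupled receptors, the CC and CXC families being named for the spacing of their first cysteines. Interleukins act on leukocytes and stromal cells, many of them through JAK and STAT proteins, while ligands of the TNF superfamily bind trimeric receptors that activate NF-κB or cell death. In the valve leaflet, where interstitial cells make the matrix, such signals are known for the recruitment of macrophages and T lymphocytes during calcific disease. The roles given below are those known for the human and mouse genes.

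The values are log2 values made with RMA, which corrects the background of an array, normalizes the arrays to each other and summarizes the probes of a probe set. Probe sets differ in how strongly their probes bind, so a level is given here as its place among all probe sets and never as an amount of 1 gene against another. The array medians lay between 7.33 and 7.38, and the correlation over all probe sets was 0.987 to 0.993 within a sex and 0.972 to 0.987 between the sexes. Markers of valve interstitial cells and fibroblasts were near the top of the array, with VIM at the 99.9th and DCN at the 99.8th percentile. Endothelial markers ranged widely after scraping, with KDR at the 13.2nd, FLT1 at the 29.9th and PECAM1, the brightest of them, at the 98.4th percentile. The KDR probe set used here differed by -0.19, male minus female, with overlap of the sexes. The study, in contrast, reports KDR as higher in males, on the arrays and by qRT-PCR. Whether the probe set used here reads KDR was not tested, so its low level need not reflect the endothelium left. PECAM1 values of 13.69, 13.31 and 12.61 in males did not overlap those of 12.16, 12.28 and 11.83 in females. Of the 13 measured endothelial markers 11 averaged higher in males, and their summed linear level was 13770 to 29070 in males and 9792 to 14980 in females. Since the tissue was measured in bulk, fewer cells of a type and less RNA per cell cannot be told apart for any gene below.

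The 76 genes were spread over the range of the array much as all probe sets were. A mean at or above 5.545, the 25th percentile of all probe sets, was reached by 57 genes, and 39 lay at or above the median of 7.36. By definition 17999 and 12000 of all 23999 probe sets lay at or above these limits. Both shares of the genes were thus near the background. The remaining 19 genes lay under the 25th percentile, and the RMA values carry no call of whether such a gene was detected. The brightest probe sets were those of the neutrophil attractant CXCL2 (98.9th percentile), the monocyte attractant CCL2 (97.6th), the macrophage migration inhibitory factor MIF (96.8th), the NF-κB inhibitor NFKBIA (96.3rd) and the TNF receptor TNFRSF1B (95.6th). Interleukins were split, with 7 of 16 above the 25th percentile and 9 below it, among these the lymphocyte cytokines IL2, IL4, IL5, IL13, IL17A and IL21. All 7 CXC chemokines and 11 of 12 CC chemokines were above it.

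**Figure D1:**
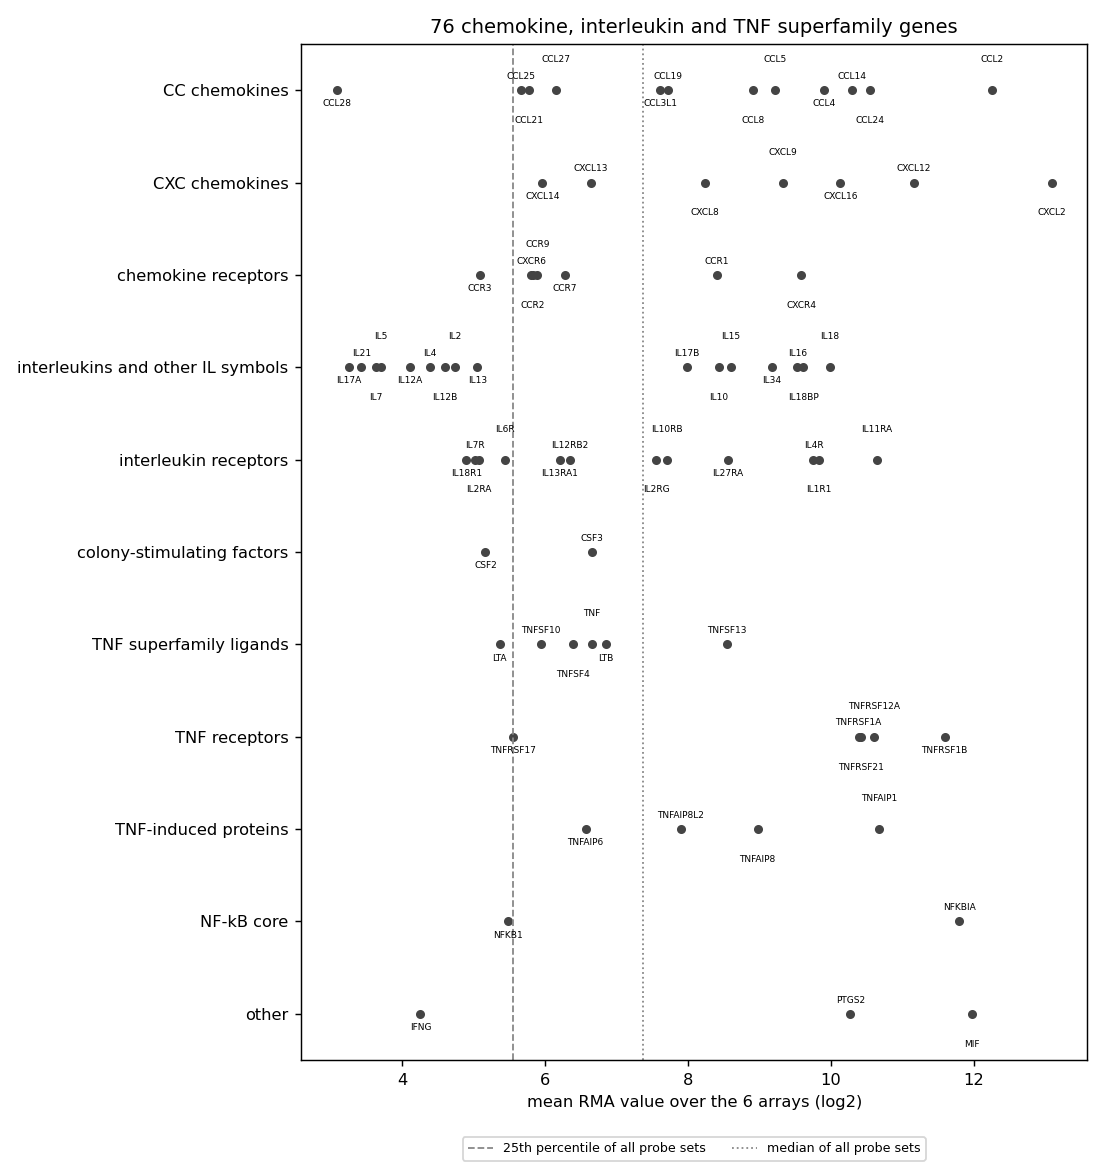
Mean RMA value (log2) of each of the 76 genes over the 6 arrays, 1 point per gene, in rows by role. The dashed line marks the 25th percentile (5.545) and the dotted line the median (7.36) of all probe sets, and 19 genes lie left of the dashed line, 9 of them interleukins.

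Across the whole group the sexes were close. A call was an adjusted limma p under 0.05 together with a difference of at least 2-fold. Over all probe sets 0.304% were called, and 0 of the 76 genes were, while 11 had an unadjusted limma p under 0.05. A second comparison tested only the 10% of probe sets with the highest coefficient of variation over the 6 arrays (CV filter). The study also filtered on this coefficient, but describes its filter as removing values that were not similar between replicates. A filter nearer to that wording (within-sex coefficient under the median) called 0 of the 76 genes. It left out IL17B, IL15, CCL5 and CXCR4 before the test, so it could not call them. The CV filter kept 23 of the 76 genes and called 1, the probe set annotated IL17B, lower in males, where 7.59% of the 2412 probe sets kept were called in either direction and 2.99% as lower in males. At an unadjusted limma p under 0.05, 7 of the 76 genes were higher and 4 lower in males, against 8.08% and 8.83% of all probe sets. Together that was 14.5% of the genes and 16.9% of all probe sets, so the share was near the background. The median difference, male minus female, was 0.04 on the log2 scale over the 76 genes and -0.01 over all probe sets.

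The sexes did not overlap for 9 genes that were higher in males (IL15, IL18, IL10, IL7, IL27RA, TNFAIP1, TNFRSF1A, TNFRSF21 and CCL27). Among all probe sets the share of such genes was 11.1%, and among the 76 it was 11.8%. They did not overlap for 3 that were lower in males (IL17B, IL11RA and TNFAIP8), which was 3.95% of the genes against 11.4% of all probe sets. A difference of at least 2-fold was seen for IL15, CCL5 and TNFAIP1, which were higher, and for IL17B, which was lower, and 3 of these 4 were called in neither comparison. Such differences made up 5.26% of the genes and 2.18% of all probe sets. An exact permutation test of 3 against 3 samples cannot give a two-sided p below 0.1, so for a single gene no rank-based test can pass 0.05 here.

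**Figure D2:**
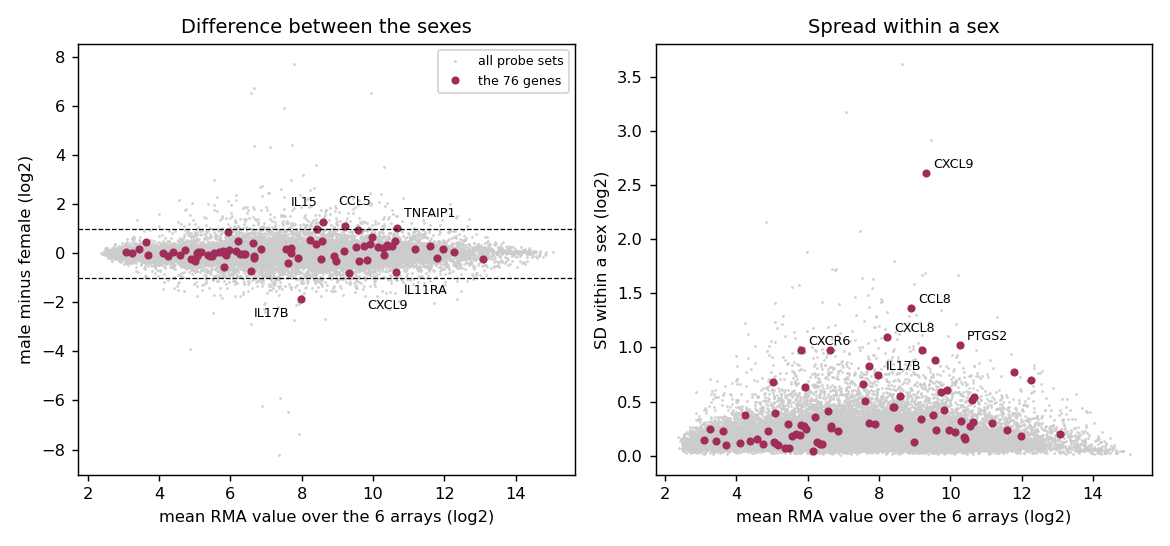
Male minus female difference (left, log2) and SD within a sex (right, log2) against the mean RMA value over the 6 arrays, with the 76 genes in red over all 23999 probe sets in grey. Dashed lines mark a 2-fold difference. Of the 76 genes 4 lie beyond them, and CXCL9 has the largest SD within a sex of the group (2.61).

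Among the cytokines, the interleukins held most of the genes with an unadjusted limma p under 0.05, 4 higher and 1 lower in males of 16. That was 31.2% of them, against 16.9% of all probe sets. IL15, which sustains natural killer cells and memory CD8 T lymphocytes, had values of 9.83, 9.20 and 8.67 in males, against 8.40, 8.10 and 7.40 in females. Every male sample was above every female sample. The difference was 1.27 ± 0.35 (log2 ± SE), or 2.41-fold, with a limma adjusted p of 0.170 over all probe sets and 0.0676 with the CV filter. With the CV filter IL15 was called without male 3 (1.55, limma adjusted p = 0.0307), but the difference was 0.97 without male 1 (limma adjusted p = 0.255) and 0.98 without female 3 (limma adjusted p = 0.217).

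IL18, a cytokine of the IL-1 family that induces interferon-γ, was 10.17, 10.56 and 10.18 in males and 9.61, 9.92 and 9.43 in females. The difference of 0.65 ± 0.17 was under 2-fold, and its limma adjusted p was 0.159. IL18BP, the secreted protein that binds and neutralizes IL18, went the other way by -0.33 with overlap of the sexes (limma adjusted p = 0.386), and IL18R1, a subunit of its receptor, was below the 25th percentile.

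IL10, the main anti-inflammatory interleukin, was 8.64, 8.996 and 9.11 in males and 8.11, 8.43 and 7.30 in females. All 3 males were higher, with female 3 far below the rest. The difference was 0.97 ± 0.29, with a limma adjusted p of 0.188 over all probe sets and 0.111 with the CV filter. IL7, which keeps lymphocytes alive, also showed no overlap, with 3.91, 3.82 and 3.85 in males and 3.76, 3.30 and 3.13 in females. Its mean lay at the 6.70th percentile, and the difference of 0.46 was therefore between values near the bottom of the array (limma adjusted p = 0.240). The remaining interleukins above the 25th percentile differed little, with IL16 at 0.24 and IL34, a ligand of the macrophage growth factor receptor, at 0.11.

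The gene with the strongest difference of the group was the one annotated IL17B, a member of the IL-17 family. Its probe set gave 6.39, 6.89 and 7.88 in males and 8.13, 9.03 and 9.58 in females. The highest male lay just under the lowest female. The difference was -1.87 ± 0.46, a 3.64-fold lower level in males, with a limma adjusted p of 0.149 over all probe sets and 0.0421 with the CV filter. The call was lost in limma without male 1 (adjusted p = 0.118), male 2 (0.0766), female 2 (0.0605) or female 3 (0.116).

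Whether this probe set reads IL17B is uncertain. The other 2 probe sets annotated IL17B differed by -0.15 (limma adjusted p = 0.628) and -0.09 (limma adjusted p = 0.819). In the first of them males gave 6.57, 6.39 and 6.30 and females 6.80, 6.49 and 6.42. In the second males gave 5.75, 6.15 and 6.33 and females 6.10, 6.10 and 6.29. The sexes overlapped in both of these, unlike in the brighter probe set. The study's own annotation names the brighter probe set GRPEL2, a co-chaperone of mitochondrial protein import. In the RefSeq gene models of the pig the IL17B locus, mostly long noncoding transcripts, overlaps GRPEL2, PCYOX1L and the microRNA genes MIR143 and MIR145. Which transcript the probes bind was not tested, and with the mean of the 3 probe sets the difference was -0.70 and was not called.

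**Figure D3:**
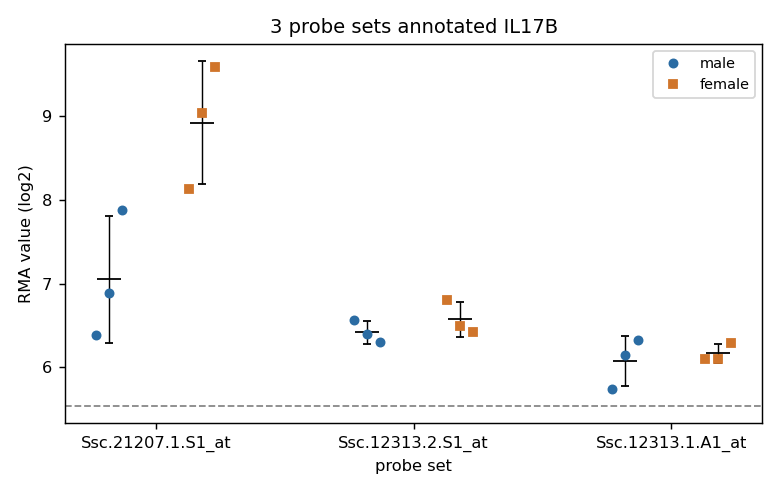
RMA value (log2) of each array for the 3 probe sets annotated IL17B, males (blue circles) left of females (orange squares), with black bars for each sex's mean and SD and the 25th percentile of all probe sets (5.545) dashed. The sexes are apart in the first probe set (difference -1.87) and overlap in the other 2 (-0.15 and -0.09).

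Of the 12 interleukin receptors, 5 averaged higher and 7 lower in males. IL11RA, the receptor chain that binds the fibroblast-active cytokine IL-11, was 9.78, 10.37 and 10.64 in males and 11.01, 11.10 and 10.98 in females. The 3 females lay close together (SD 0.07) and above every male. The difference was -0.76 ± 0.21, with a limma adjusted p of 0.171. IL27RA, a receptor chain of lymphocytes and myeloid cells, was 8.66, 8.88 and 8.85 in males and 8.65, 8.33 and 7.97 in females. Here male 1 and female 1 were nearly equal, and the difference of 0.48 did not pass (limma adjusted p = 0.252). IL13RA1, an X-linked receptor chain of IL-13, was higher by 0.52 and overlapped, and the X-linked IL2RG, the common gamma chain shared by receptors of IL-2, IL-7 and IL-15, was higher by 0.18. IL4R differed by 0.29 and by 0.00 in its second probe set, and IL1R1, the signalling receptor of IL-1, by -0.27 and by 0.00, its second probe set being below the 25th percentile.

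**Figure D4:**
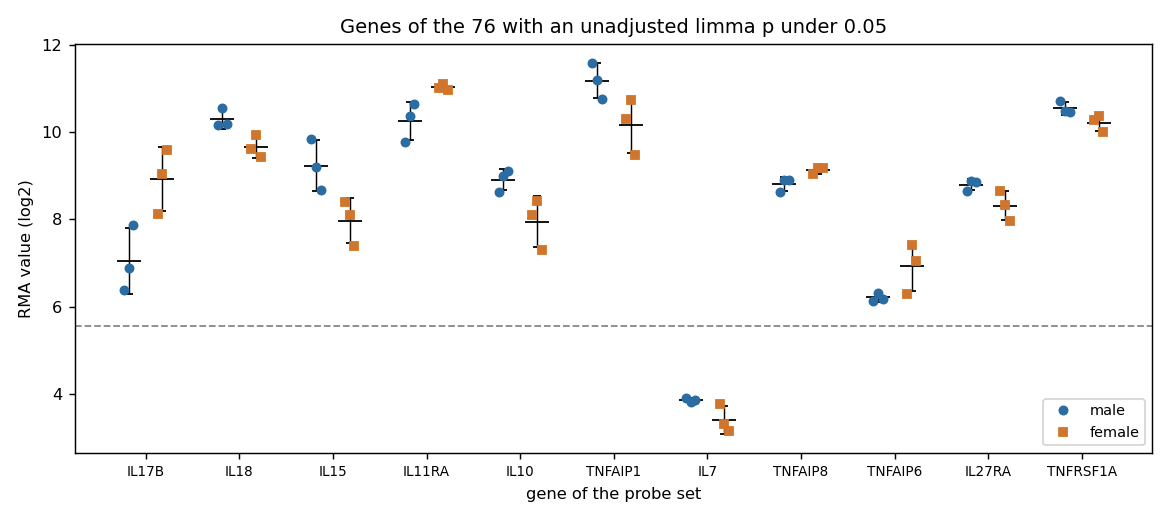
RMA value (log2) of each array for the 11 genes with an unadjusted limma p under 0.05, males (blue circles) left of females (orange squares), with black bars for each sex's mean and SD and the 25th percentile of all probe sets (5.545) dashed. The sexes do not overlap except for TNFAIP6, and IL7 lies below the dashed line.

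Among the CC chemokines 9 of 12 averaged higher in males, with a median difference of 0.05. An unadjusted limma p under 0.05 was seen for 0 of the 12, against 16.9% of all probe sets. CCL5, which attracts T lymphocytes and monocytes, was 10.52, 10.17 and 8.62 in males and 9.66, 8.56 and 7.81 in females. Male 3 lay below female 1, so the sexes overlapped. The difference of 1.09 ± 0.60, or 2.13-fold, had a limma adjusted p of 0.405 over all probe sets and 0.2002 with the CV filter. With the CV filter it was 1.67 and called without male 3 (limma adjusted p = 0.0436), but 0.66 without female 3 (limma adjusted p = 0.5002) and 0.72 without male 1 (limma adjusted p = 0.552).

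CCL2, the major attractant of monocytes, was 12.19, 12.56 and 12.08 in males and 12.24, 13.19 and 11.27 in females. The 3 males lay between the highest and the lowest female, and the means differed by 0.04 (limma adjusted p = 0.973). CCL8, a close relative of CCL2, was 8.51, 8.89 and 9.15 in males and 8.69, 11.00 and 7.23 in females. Female 2 was the highest and female 3 the lowest array for both genes. CCL24, an attractant of eosinophils, was 10.49, 10.94 and 10.64 in males and 10.54, 10.03 and 10.62 in females, a difference of 0.30 (limma adjusted p = 0.477).

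Of the 7 CXC chemokines, 5 averaged higher in males and the median difference was 0.17. CXCL2 was 13.05, 13.21 and 12.66 in males and 13.22, 13.22 and 13.16 in females. The highest array was 1.48-fold above the lowest on the linear scale, and the difference was -0.23 (limma adjusted p = 0.487). CXCL12, the stromal ligand of CXCR4, was 10.97, 11.24 and 11.54 in males and 10.97, 11.45 and 10.83 in females, with a difference of 0.17 (limma adjusted p = 0.732). CXCL8, which attracts neutrophils, was 8.18, 9.28 and 8.05 in males and 8.13, 9.27 and 6.50 in females. Male 2 and female 2 were equally high and female 3 was low, and the difference of 0.53 was smaller than the SE of 0.67.

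CXCL9, an interferon-γ induced attractant of T lymphocytes, varied more from array to array than any other gene of the group. It was 7.10, 12.05 and 7.62 in males and 11.54, 10.75 and 6.87 in females. In each sex there were both high and low arrays, and the highest was 36.1-fold above the lowest on the linear scale. Its SD within a sex was 2.61, at the 99.99th percentile of all probe sets, and the difference between the sexes of -0.80 ± 1.60 had a limma adjusted p of 0.843.

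Of the 7 chemokine receptors, CXCR4, the receptor of CXCL12 on leukocytes and endothelial cells, had the largest difference. It was 10.03, 10.14 and 10.001 in males and 10.54, 8.43 and 8.36 in females. The 3 males lay close together (SD 0.07), while female 1 was above them and the other females far below. The difference of 0.95 ± 0.54 had a limma adjusted p of 0.426 over all probe sets and 0.231 with the CV filter. Without female 1 it was 1.66 and called in both comparisons (limma adjusted p = 0.00831 over all probe sets, 0.0280 with the CV filter). Without female 3 it was 0.57 (limma adjusted p = 0.741 and 0.538) and without female 2 it was 0.61 (limma adjusted p = 0.599 and 0.414). CXCR6, the receptor of CXCL16 on T lymphocytes, was 5.27, 6.15 and 5.20 in males and 7.55, 5.36 and 5.34 in females. Female 1 was the highest array, followed by male 2, and the difference of -0.54 had a limma adjusted p of 0.696. Its ligand CXCL16 was at the 85.6th percentile and differed by 0.23. CCR1, CCR2, CCR7 and CCR9 differed by 0.37, 0.01, -0.04 and -0.05.

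Of the 5 TNF receptors, 4 averaged higher in males and the median difference was 0.31. TNFRSF1A, the widely expressed receptor of TNF, was 10.72, 10.48 and 10.46 in males and 10.27, 10.38 and 10.001 in females. All males were higher, by 0.33 ± 0.14, and the limma adjusted p was 0.287. TNFRSF1B, the TNF receptor of leukocytes and endothelium, was 11.88, 11.78 and 11.57 in males and 11.50, 11.70 and 11.11 in females, a difference of 0.31 with overlap (limma adjusted p = 0.411). TNFRSF12A, the receptor of TWEAK, was 11.09, 11.21 and 10.26 in males and 10.07, 10.94 and 10.05 in females. Its difference was 0.50 and that of its second probe set 0.67, and neither passed (limma adjusted p = 0.483 and 0.431). TNFRSF21, a receptor with a death domain, was higher in every male, by 0.27. TNFRSF17, the plasma cell receptor, lay at the 25.1st percentile.

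The 6 ligands of the TNF superfamily were dimmer, with TNFSF13 alone above the median of the array. TNFSF13, a survival factor of B lymphocytes and plasma cells, was 8.45, 8.36 and 8.51 in males and 8.62, 9.04 and 8.32 in females. It differed by -0.22 (limma adjusted p = 0.592). TNF itself was at the 40.1st percentile and differed by -0.10. TNFSF10, which triggers apoptosis, was 6.28, 6.91 and 5.90 in males and 6.33, 5.31 and 4.91 in females. The difference of 0.85 was the largest of the ligands, with female 1 among the males and a limma adjusted p of 0.336 over all probe sets and 0.196 with the CV filter. LTA, LTB and TNFSF4 differed by -0.06, 0.18 and -0.03.

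Of the 4 TNF-induced proteins 1 averaged higher and 3 lower in males, and none was called in either comparison. An unadjusted limma p under 0.05 was seen for 3 of the 4, against 16.9% of all probe sets. TNFAIP1, an adaptor of a ubiquitin ligase, was 11.59, 11.20 and 10.77 in males and 10.30, 10.73 and 9.48 in females. The lowest male was just above the highest female. The difference of 1.01 ± 0.34, or 2.02-fold, had a limma adjusted p of 0.220 over all probe sets and 0.118 with the CV filter. Without female 3 it was 0.67 (limma adjusted p = 0.426 over all probe sets). TNFAIP6, a secreted hyaluronan-binding protein, was 6.13, 6.32 and 6.17 in males and 6.30, 7.42 and 7.05 in females. Female 1 lay among the males, and the difference was -0.71 ± 0.27 (limma adjusted p = 0.248). TNFAIP8, a regulator of apoptosis, was 8.63, 8.90 and 8.91 in males and 9.04, 9.18 and 9.18 in females. It was lower in every male, by 0.32 on the log2 scale, and its second, dimmer probe set differed by -0.10. TNFAIP8L2, a brake on immune cell activation, differed by -0.21 in the probe set used and by 0.51 in its other probe set.

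NFKBIA, the inhibitor that holds NF-κB in the cytoplasm and is itself a target of NF-κB, was 11.87, 12.22 and 10.96 in males and 11.51, 12.90 and 11.28 in females. The difference was -0.21 (limma adjusted p = 0.862), and male 3 was the lowest and female 2 the highest array. PTGS2, the inducible cyclooxygenase that makes prostaglandins, was 11.33, 10.12 and 9.67 in males and 9.96, 11.41 and 9.12 in females. Each sex had 1 high array, male 1 and female 2, and the difference was 0.21 (limma adjusted p = 0.898). MIF was 12.24, 12.06 and 11.84 in males and 11.90, 12.05 and 11.73 in females, a difference of 0.15 (limma adjusted p = 0.634). CSF3, the granulocyte growth factor, was 6.59, 6.48 and 6.59 in males and 6.43, 7.18 and 6.64 in females. Female 2 was the highest array, and the difference was -0.19 (limma adjusted p = 0.656). NFKB1 and IFNG were below the 25th percentile.

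Samples of the same sex differed widely for many of the 76 genes. The median SD within a sex was 0.28 over the 76 genes and 0.17 over all probe sets. Of the genes, 28 (36.8%) were among the 10% of all probe sets with the highest such SD, and 28 (36.8%) ranged over at least 2-fold across the 6 arrays, which 14.1% of all probe sets did. After CXCL9 the largest SDs above the 25th percentile were those of CCL8 (1.36), CXCL8 (1.09), PTGS2 (1.02) and CXCR6 (0.97). These shares are descriptions of the 6 arrays, and the genes are not independent of each other.

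The high and low values fell on certain arrays. Among the 57 genes above the 25th percentile, male 2 was the highest of the 6 arrays for 18 (31.6%) and female 2 for 15 (26.3%), where these arrays were highest for 8.22% and 18.1% of all probe sets above the same limit. Female 3 was the lowest array for 30 of the 57 (52.6%), against 20.6% of all such probe sets. Female 3 was the lowest array for CCL2, CCL4, CCL5, CCL8, CXCL8, CXCL9, IL10, IL15 and PTGS2, among others. These counts touch the comparison of the sexes. Without female 3 the differences of IL15 (0.98), CCL5 (0.66) and TNFAIP1 (0.67) were all under 2-fold. The same was true without male 1, with 0.97 for IL15, 0.72 for CCL5 and 0.81 for TNFAIP1.

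Some genes, gathered here after their values were seen, were high in male 2 and female 1. CXCL13, an attractant of B lymphocytes, was 5.85, 8.27 and 6.41 in males and 6.96, 5.90 and 6.42 in females. CD3E, a subunit of the T cell receptor complex taken from the lymphocyte marker list, was 6.46, 7.93 and 6.36 in males and 8.48, 6.11 and 6.21 in females. Male 2 and female 1 were thus the high arrays for both, as they were for CXCL9, CXCR6 and IL2RG. The 12 measured lymphocyte markers summed on the linear scale to 845, 1295 and 794 in males and 1544, 730 and 718 in females, the lymphocyte marker CD79B being below the 25th percentile. Not every marker of the list had this pattern. PRF1 was highest in male 3 (6.61) and CD8B in female 3 (6.21), while CD4 was highest in male 2 (6.30) and female 2 (6.27). CXCL9 differed from the pattern of male 2 and female 1 in female 2, where it was high and the lymphocyte sum was not. The T lymphocyte attractant CCL5 was highest in male 1. The part of lymphocytes in these values was not tested.

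A second set, gathered in the same way, was high in female 2 and low in female 3. It held CCL2, CCL8, CXCL8 and NFKBIA, with PTGS2 also high in male 1 and CXCL8 also in male 2. SELE, the endothelial selectin induced by TNF and IL-1, was 6.99, 8.47 and 5.73 in males and 5.93, 8.80 and 4.92 in females, and thus also high in male 2 and female 2. The 4 measured neutrophil markers, 3 of them with a mean below the 25th percentile, summed to 139, 208 and 136 in males and 145, 126 and 146 in females, and were not high in female 2.

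**Figure D5:**
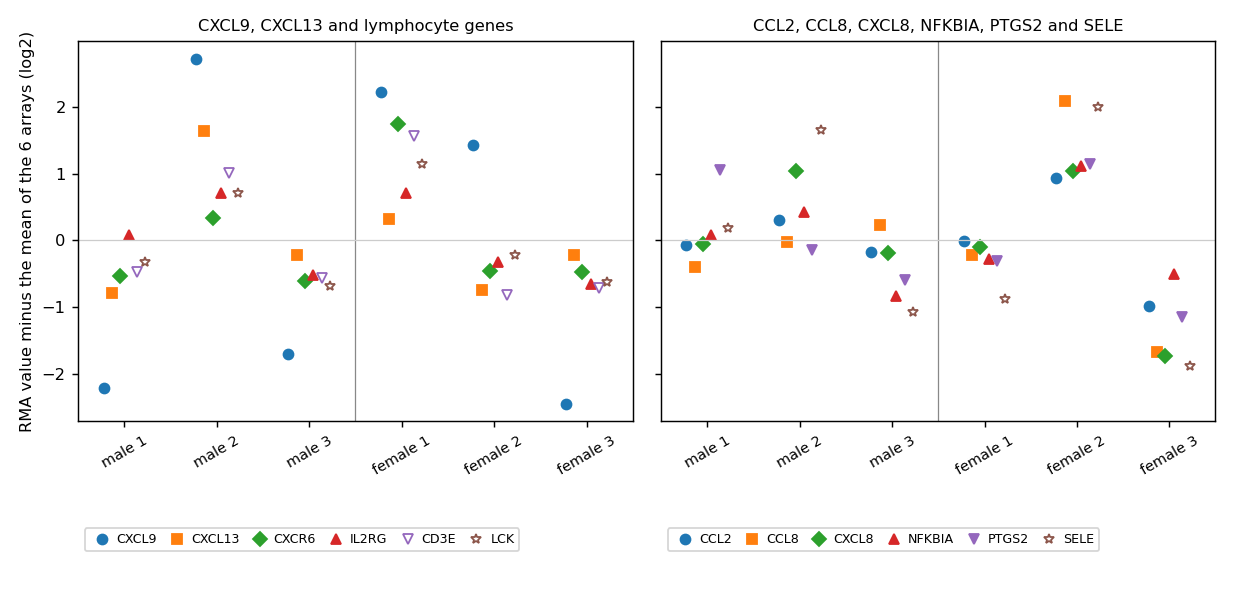
RMA value minus the mean of the 6 arrays (log2) for each array, males left of females, with genes of the group as filled and marker or pathway genes as open symbols. On the left CXCL13, CXCR6, IL2RG, CD3E and LCK are above their mean in male 2 and female 1, and CXCL9 also in female 2. On the right the 6 genes are above their mean in female 2 and below it in female 3.

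Marker lists of several cell types also differed between the arrays. The 13 endothelial markers summed to 29070, 22500 and 13770 in males and 10180, 14980 and 9792 in females. In males IL15, TNFAIP1 and CCL5 were likewise highest in male 1 and lowest in male 3, whereas IL10 was lowest in male 1 and IL18 highest in male 2. In females IL15 and CCL5 were highest in female 1, and TNFAIP1 and the endothelial sum in female 2. Over all probe sets 0 of the 13 endothelial markers were called, against 0.304% of all probe sets. An unadjusted limma p under 0.05 was seen for 7 (53.8%), all higher in males, against 16.9% of all probe sets. The sexes did not overlap for 6 (46.2%), again all higher in males, against 11.1% of all probe sets. The CV filter tested 7 of the 13 markers and called 2, ESAM (1.59) and ICAM2 (1.70), both higher in males, against 7.59% of all probe sets it kept. Pan-leukocyte markers summed to 8744, 9358 and 7270 in males and 8561, 7318 and 5117 in females, and the 10 measured macrophage markers to 26320, 29630 and 21890 in males and 27580, 23000 and 18510 in females. Both lists were lowest in female 3, and neither separated the sexes. The 2 measured mast cell markers, KIT and MS4A2, summed to 470, 472 and 352 in males and 282, 220 and 197 in females, with no overlap. By itself KIT did overlap, male 3 (6.19) being below female 1 (6.92) and female 3 (6.35), while MS4A2 did not. Valve interstitial and fibroblast markers ran the other way for 8 of 10 genes, with a median difference of -0.27, and 2 of these, DCN and PDGFRB, did not overlap. The largest difference of the 10 was that of S100A4, which was higher in males by 1.20 without overlap (limma adjusted p = 0.1335). VIM was higher by 0.04. The part of these cells in the results for IL15, IL18, IL10, TNFAIP1 and CCL5 was not tested.

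Genes that act downstream of these ligands and receptors were also measured. Of 62 listed genes 31 were measured, of which 19 averaged higher and 12 lower in males, with a median difference of 0.05. Over all probe sets 0 of the 31 were called, where 0.304% of all probe sets were. The CV filter kept only 4 of the 31 and called 0, too few to set against the 7.59% called among all it kept. An unadjusted limma p under 0.05 was seen for 2 (6.45%), against 16.9% of all probe sets. The largest differences were those of the endothelial selectin SELP (0.89, limma adjusted p = 0.332) and of JAK2, and the adhesion receptor ICAM1 differed by 0.57 (limma adjusted p = 0.588). JAK2, a kinase of many cytokine receptors, was 9.35, 9.64 and 9.69 in males and 10.18, 10.58 and 10.02 in females, a difference of -0.70 without overlap (limma adjusted p = 0.144). VCAM1, which binds leukocytes to cytokine-stimulated cells, was 13.33, 13.53 and 13.38 in males and 13.21, 13.09 and 12.59 in females, a difference of 0.45 (limma adjusted p = 0.261). STAT3, the signal transducer of IL-6 and IL-10, was at the 95.7th percentile and differed by 0.02.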

How the data were processed

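The deposited values are log2 expression values of 24123 probe sets, which the authors had derived by RMA (R 2.12.0), and they were read without further normalization. The 6 arrays set the limit of precision. All 23999 probe sets other than controls entered the first comparison, and the second used the 2412 of all 24123 probe sets with the highest coefficient of variation (SD over mean of the 6 log2 values), of which 2407 were not controls. The study's methods name a filter on this coefficient without the share kept. Its supplement describes it as removing values unlike between replicates, and the CV filter used here does not follow that wording. It called 183 probe sets, and the study reports 183 differing genes. Probe sets and genes are different units, so the equal number does not show that the filters were the same. The filter nearer to the wording (within-sex coefficient under the median) called 26. Whether the study used the CV filter applied here was not tested.

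The sexes were tested against each other with limma 3.58.1 in R 4.3.3 (lmFit, then eBayes, with sex as the only term). Adjustment followed Benjamini and Hochberg within each comparison. On simulated arrays (10 runs, 200 of 23999 probe sets changed), a shift of 1.5 in log2 was called for 84.6% over all probe sets and for 91.9% with the CV filter, and false calls were 1.95% and 4.62%. The changed probe sets were drawn at random from all probe sets, with independent noise. The 76 genes had a larger median SD within a sex (0.28 against 0.17), so these shares need not hold for them.

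The array annotation gives 1 gene for 10069 probe sets, several for 198 and none for 13732. RefSeq (Sscrofa11.1) held all 76 symbols and was used for names, for chromosome X and for overlapping gene models, which 24 of the 76 genes have, among them PTGS2 (PLA2G4A), CXCR6 (FYCO1), TNFRSF1A (PLEKHG6) and IL2RG (MED12). Whether probes read the neighbour was not tested. Of 11 further probe sets of the genes, 8 had the sign of the probe set used.

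Full values are given for called genes, those with an unadjusted p under 0.05, the 10 highest means, the 5 largest differences each way and the 5 largest SDs within a sex above the 25th percentile, and the brightest gene of each role (28 genes). CXCL13, TNFSF10 and the further IL17B probe sets were added after their values were seen. The genes and lists were chosen with earlier results of these data known. Alternatives left out arrays, centred them, averaged probe sets, blocked on the replicate number, or changed the variance model, the minimum fold, the CV filter or the filter on low values.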

Additional observations from a re-analysis of the deposited data

How the results depend on the processing

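The count of genes called over all probe sets (0) was 0 to 1 when an array was left out, the 1 being CXCR4 without female 1. With the CV filter (1, IL17B) it was 0 to 3, namely 0 without male 1, male 2, female 2 or female 3. It was also 0 with the mean of a gene's probe sets and without the probe set annotated IL17B (chosen after seeing the data). A filter on a within-sex coefficient of variation under the median gave 0 as well, but left out IL17B, IL15, CCL5 and CXCR4 before the test. Centring, an intensity trend and no minimum fold left both counts as they were, as did a filter on low values for the count over all probe sets and a CV filter of 25% for the other. Genes without overlap numbered 10 to 16 higher (9 with all arrays) and 4 to 8 lower (3) with an array left out, since fewer samples overlap less often.

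The replicate numbers were not used as pairs, because deviations of same-numbered samples correlated at -0.10, 0.01 and 0.27. Blocking on that number, limma called 2 genes in each comparison, IL17B (adjusted p = 0.0159 over all probe sets) and IL15 (0.0286), where 204 of all probe sets were called in place of 73.

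Leaving out an array turned the sign of 8 uncalled differences, whose values ranged from -0.44 to 0.52 for CCL2, -1.0 to 0.88 for CCL8, -0.35 to 0.021 for CSF3, -0.20 to 1.19 for CXCL8, -2.36 to 0.11 for CXCL9, -0.91 to 0.19 for CXCR6, -0.52 to 0.29 for NFKBIA and -0.31 to 0.84 for PTGS2. The causes were not tested.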
